A study of Mus musculus with 36 samples.

Results

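The 30 genes described here encode nucleoporins, the proteins that build the nuclear pore, and they were followed through the RNA and the promoter chromatin of mouse hippocampus. All 30 were found by symbol among the 24060 genes of the deposited RNA count files, and all 30 passed the low-count filter, which left 14405 genes for testing. The family was taken up because 1 of its members, Nup188, had stood out between old naive and young naive hippocampi in these same libraries. The age difference in naive mice, and every value of Nup188 that rests on naive libraries, is therefore given as a description. For the histone variant H2A.Z, promoter peaks were those of the authors' deposited table of 20213 consensus peaks (mm10) that it names for a member, at a distance of at most 1000 bp from the start site. By that rule, 24 members had a promoter peak, 1 each, among 11646 genes with one.

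The mice were C57BL/6J, and no genotype or drug was varied. Old mice were 15.5 months of age and young mice 2.5 months. Conditioned mice went through a 5 min fear training session with 3 foot shocks of 0.5 mA lasting 2 s, and their brains were frozen 30 min after training, while naive mice are labelled as such. Whole hippocampi gave 3 RNA libraries and 3 H2A.Z immunoprecipitated libraries for each of the 4 groups (old conditioned, old naive, young conditioned and young naive). Whether a library is 1 mouse or a pool is not in the labels, so p-values measure the spread between these libraries, which may be technical. RNA totals ran between 9410843 and 13350561 counts a library. Levels are given as CPM, counts scaled to library size, which are not corrected for transcript length, so they are compared between libraries and not between genes.

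Nuclear pores are the channels through which RNA and protein pass between nucleus and cytoplasm. A ring of Y-shaped complexes frames each face of the pore, an inner ring lines its waist, membrane proteins anchor it, and repeat-rich nucleoporins fill the central channel. Filaments on the cytoplasmic face and a basket on the nuclear face handle cargo as it leaves or enters. Scaffold nucleoporins are known as exceptionally long-lived proteins in neurons, so that a transcript level is not a measure of how much of the protein a cell holds. H2A.Z is a variant of histone H2A found in the nucleosomes that flank the start sites of many active genes.

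Libraries differed in their RNA make-up within groups and, in part, between groups. The neuronal genes Snap25 and Rbfox3 and the hippocampal genes Prox1 and Neurod6 were well above 0 in each library, with Prox1 between 92.5 and 128 CPM. The summed CPM of 16 choroid plexus markers ran between 241 and 406 in old conditioned, 420 and 3010 in old naive, 243 and 3610 in young conditioned and 490 and 4820 in young naive libraries, and 2 of the markers were at 0 in 1 young conditioned library. The summed CPM of 7 nuclear-retained RNAs ran between 7830 and 13800 in old conditioned, 8950 and 15600 in old naive, 13500 and 17000 in young conditioned and 9960 and 21400 in young naive libraries. For the choroid plexus sum, every old conditioned library lay under every old naive one. In bulk tissue, fewer cells of a type and less RNA per cell cannot be told apart.

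Promoter H2A.Z of the nucleoporin genes was lower after conditioning at both ages, in step with the promoters of the whole table. In old mice, 24 of 24 nucleoporin promoters had a log2 fold (conditioned minus naive) below 0 in the authors' deposited table, with a median of -1.02, against -1.03 over all 11646 promoters, of which 98.5% lay below 0. An FDR under 0.05, as the authors computed it, was reached by 5 of the 24, all lower, where 16.6% of all promoters in the authors' deposited table reached it. At an FDR of 0.01 it was 1 of the 24 against 2.71% of all promoters, and at 0.10 it was 8 against 29.5%, in the authors' deposited table. In young mice, 22 of 24 lay below 0 with a median of -0.57, against -0.62 over all promoters of the authors' deposited table, where 92.1% lay below 0. There, 4 of the 24 had an FDR under 0.05, all lower, beside 14.3% of all promoters in the authors' deposited table. The members' shares are close to these backgrounds, so nothing in these counts is particular to nucleoporins. The group levels in the authors' deposited table differ from its folds by a constant for each comparison, -0.215 for conditioning in old and 0.0 for conditioning in young mice. How far below 0 a median fold lies depends at both ages on how libraries were scaled, which the sources used here do not state. The table holds no values per library.

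Old and young mice passed the FDR at different nucleoporin promoters. In old mice these were Nup50, a basket protein that helps importins release their cargo, Rae1, an mRNA export factor, the membrane proteins Nup210 and Pom121, and Seh1l of the Y complex. Nup50 had the smallest FDR of the 24, at a log2 fold of -1.37 and an FDR of 0.00777 in the authors' deposited table. Rae1 followed the same direction with a fold of -1.39 (FDR 0.0342), per the authors' deposited table. The authors' deposited table gives Nup210 a fold of -1.06 (FDR 0.027), Pom121 one of -1.10 (FDR 0.049) and Seh1l one of -0.92 (FDR 0.0482). Just outside the threshold in the authors' deposited table were Nup153 at -1.09 (FDR 0.0619) and Ahctf1 at -0.89 (FDR 0.0635). In young mice the 4 promoters were Aaas, Nup43, Nup155 and Nup37, and their folds were larger. Aaas, which encodes a WD-repeat nucleoporin mutated in triple A syndrome in humans, had a fold of -2.27 (FDR 0.00048) in the authors' deposited table. For Nup43 and Nup37, small Y complex subunits, the authors' deposited table lists folds of -2.03 (FDR 0.0041) and -1.52 (FDR 0.018). Nup155 of the inner ring had the lowest fold of the family in young mice, -2.56 (FDR 0.00813) in the authors' deposited table.

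None of the 24 promoters passed the FDR at both ages in the authors' deposited table, and among all promoters 131 did, which is 6.79% of 1928 calls in old and 7.84% of 1670 calls in young mice. A call at 1 age only is not a tested difference between ages. Nup155 had a fold of -2.66 in old mice in the authors' deposited table, no smaller than in young mice, at an FDR of 0.182. Nup43 likewise had -2.06 in old mice at an FDR of 0.105 in the authors' deposited table. Seh1l and Ranbp2 are the 2 members whose fold in young mice was above 0, both at 0.12 in the authors' deposited table, with FDRs of 0.914 and 0.926. The smallest fold in old mice was that of Sec13, which serves both the pore and COPII vesicles, at -0.59 (FDR 0.631) in the authors' deposited table.

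**Figure D1:**
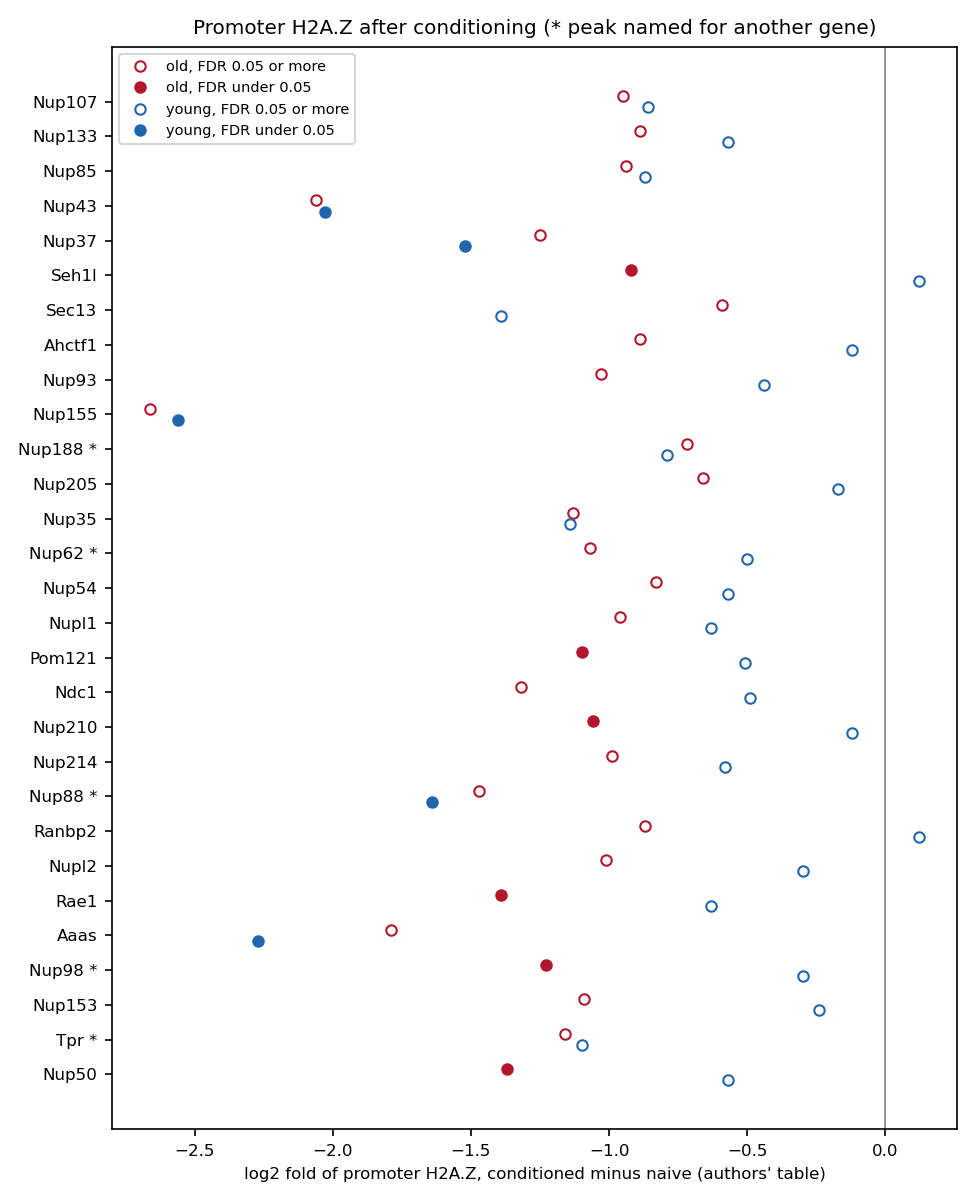
Log2 fold of promoter H2A.Z, conditioned minus naive, from the authors' deposited table, for 29 nucleoporin promoters (red, old mice; blue, young mice; filled, FDR under 0.05; an asterisk marks a peak the table names for another gene entry). All 29 old folds lie left of 0, and the lowest folds at both ages are those of Nup155, at -2.66 in old and -2.56 in young mice.

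The calls at each age were also set against the level of H2A.Z. Promoters were split into 4 equal bins by the mean level of the other age, so that the level and the fold came from different libraries. By level in old mice, from the lowest to the highest bin, 29.4%, 18.7%, 7.28% and 1.96% of all promoters in the authors' deposited table passed the FDR in young mice. The members that passed in young mice fell as 2 of 3, 2 of 9, 0 of 4 and 0 of 8 over the same bins of the authors' deposited table. By level in young mice, the shares that passed in old mice ran the other way, 1.82%, 4.5%, 18.0% and 41.9% in the authors' deposited table. The members followed with 0 of 4, 0 of 4, 2 of 9 and 3 of 7 in the authors' deposited table. Across the 24 promoters, the young fold in the authors' deposited table correlated with the mean level in old mice (Spearman rho 0.81, Pearson r 0.87), beside a rho of 0.43 over all 11646. For the old fold and the level in young mice the rho was 0.32 over the 24 and 0.13 over all promoters of the authors' deposited table. These are correlations across promoters of 1 table, and all promoters share the same few libraries and their scaling.

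Levels of the called promoters are given here from the naive group of the other age, which had no part in the fold. In young naive mice, the log2 levels of the 5 promoters called in old mice were 7.82 for Nup50, 6.99 for Rae1, 7.51 for Nup210, 7.06 for Pom121 and 7.22 for Seh1l in the authors' deposited table. Rae1 lay just under the family's median of 7.01 in that group and the others above it. In old naive mice, the levels of the 4 promoters called in young mice were 7.23 for Aaas, 6.23 for Nup43, 5.99 for Nup155 and 7.46 for Nup37 in the authors' deposited table, all under the family's median of 7.77. At Nup155 the authors' deposited table counts a peak in 1 of 3 old conditioned, 2 of 3 old naive, 0 of 3 young conditioned and 2 of 3 young naive libraries. Aaas, Nup43 and Nup37 likewise had a peak counted in 2 of 3 old naive libraries. So did Nup107, Nup214 and Sec13, which did not pass in young mice. Of the promoters called in old mice, Nup210, Pom121 and Seh1l had one in 2 of 3 young naive libraries, and Nup50 and Rae1 in 3. Ranbp2, Nup205, Nup153, Ahctf1 and Sec13 also had 2 of 3 there and did not pass in old mice. Whether single libraries bear on the calls at each age was not tested.

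**Figure D2:**
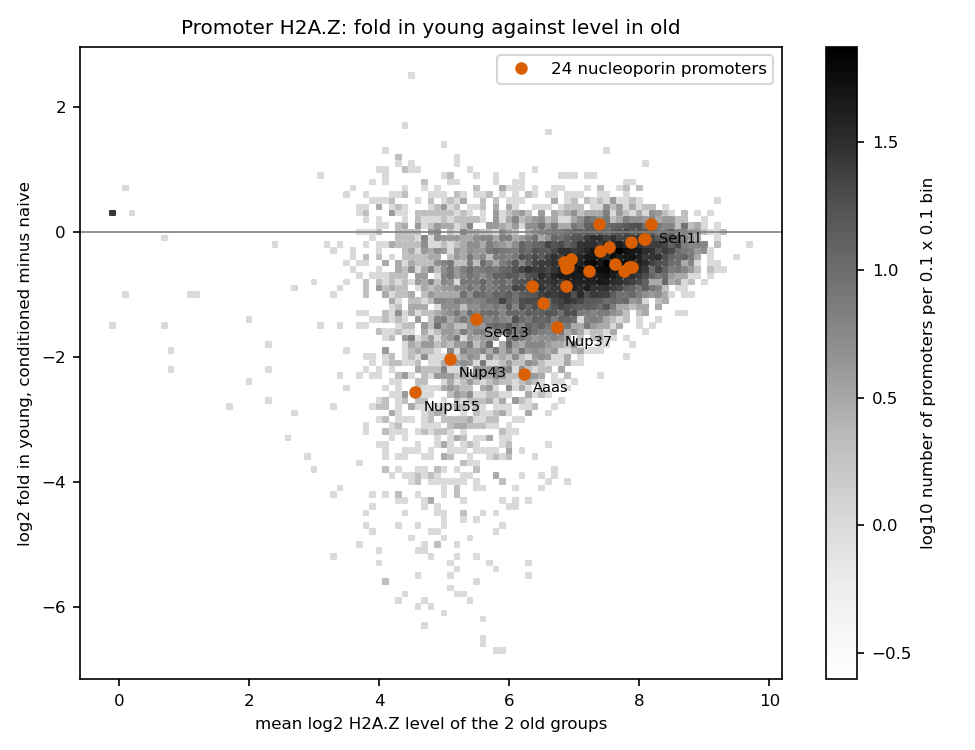
Log2 fold of promoter H2A.Z in young mice (conditioned minus naive, vertical axis) against the mean log2 level of both old groups (horizontal axis), from the authors' deposited table. Grey squares are all promoters, darker where more fall in a bin, and orange points are the 24 nucleoporin promoters, which run from Nup155 at -2.56 at the weak end to Seh1l at 0.12 at the strong end.

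Age differences of promoter H2A.Z did not pass the FDR for any nucleoporin. Between old naive and young naive hippocampi, 20 of 24 log2 folds (old minus young) in the authors' deposited table were above 0, with a median of 0.32, where 89.9% of all promoters were above 0 with a median of 0.44. No promoter of either set passed, 0.0% of all in the authors' deposited table, and the smallest FDR among nucleoporins was 0.243, for Seh1l at a fold of 1.19. Between old conditioned and young conditioned hippocampi, 12 of 24 folds in the authors' deposited table were above 0, with a median of 0.01, where 61.9% of all promoters were above 0 with a median of 0.1. No promoter passed here either, and the members' folds ran between -0.59 for Ndc1 and 0.74 for Aaas, at an FDR of 1.0 for each in the authors' deposited table.

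Most nucleoporin promoters overlapped marks of active promoters in the authors' annotation of peaks. An H3K4me3 region, the mark of active promoters, overlapped 24 of 24 peaks, beside 95.2% of all promoter peaks in the authors' deposited table. H3K27ac, a mark of active promoters and enhancers, overlapped 21 of 24 (87.5%, against 67.6% of all promoters in the authors' deposited table), and Nup155, Nup37 and Aaas were those without it. These are among the promoters called in young mice, but the share called among all promoters lacking H3K27ac was not computed. The peak that Nup188 shares with Dolk, added by coordinates, also lacks it and did not pass in young mice (FDR 0.19 in the authors' deposited table). H3K27me3, the mark laid down by Polycomb, overlapped 1 of 24, Pom121, against 34.0% of all promoters in the authors' deposited table. H3K4me1 overlapped 18 of 24 (75.0%, against 86.7% in the authors' deposited table). The sources used here do not say where the regions of these marks came from, and no difference between the sets was tested.

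A further 5 members have a promoter peak that the authors' deposited table names for another gene entry, and these were added by coordinates after the data were seen. They are Nup188 at Dolk, Nup88 at Rpain, Nup98 at Pgap2, Nup62 at Nup62-il4i1 and Tpr at BC003331. With them, 29 of 30 members had a promoter peak. The search by coordinates covered only 250 bases before to 50 after a start, a narrower span than the 1000 bp used by name. Nup160 had no peak by either rule. Nup98 passed the FDR in old mice at a fold of -1.23 (FDR 0.0429) and Nup88 in young mice at -1.64 (FDR 0.00273), per the authors' deposited table. The peak shared by Nup188 and Dolk (chr2:30285656-30286955, mm10) had log2 levels of 7.48 in old conditioned, 8.41 in old naive, 6.80 in young conditioned and 7.59 in young naive mice in the authors' deposited table. Its folds for conditioning in the authors' deposited table were -0.72 in old (FDR 0.374) and -0.79 in young mice (FDR 0.19), and its folds for age were 0.49 in naive (FDR 0.75) and 0.55 in conditioned mice (FDR 1.0). The promoter at which Nup188 and Dolk start was thus not among those that passed in any of the 4 comparisons.

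Promoter sequences were at hand for 26 members, from RefSeq on GRCm38.p6, the same build as mm10, as 250 bases before to 50 after each start. Nup35, Nup43, Nup85 and Seh1l had no entry. The 300-base windows of nucleoporins held a median of 27.5 CpG dinucleotides, against 7.0 over all 27025 windows and 22.0 over the 8750 windows of genes with a promoter H2A.Z peak. Windows were searched on both strands for CGCNTGCG (NRF1), CCGGAAG (ETS factors), GGGCGG (SP/KLF factors), CCAAT (the box of that name), TATAAA (the TATA box), TGACGTCA (CRE), AAGATGGCG (YY1) and CTACAATTC (ZNF143). The SP/KLF letters occurred in 17 of 26 (65.4%), beside 68.8% of windows with an H2A.Z peak and 35.6% of all windows. NRF1 letters occurred in 6 (23.1%, beside 17.8% and 8.33%), ETS letters in 7 (26.9%, beside 16.8% and 9.08%) and CRE letters in 3 (11.5%, beside 3.18% and 1.78%). CCAAT occurred in 9 (34.6%, beside 37.3% and 37.8%), TATAAA in 2 (7.69%, beside 6.08% and 14.1%) and the ZNF143 letters in 0 (beside 0.663% and 0.37%). The YY1 letters were found in 4 of 26 (15.4%), beside 2.88% of windows with an H2A.Z peak and 1.49% of all.

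The upstream stretches that follow belong to promoters called in old mice (Nup50 and Rae1), promoters called in young mice (Aaas, Nup155 and Nup37) and the promoter of Nup188. Each overlaps its H2A.Z peak, is written 5′ to 3′ on the gene's strand, ends just before the outermost annotated start and stops short of a divergent neighbour's start. Capitals mark the searched letters or their reverse complement.
Nup50 (chr15:84923278-84923427, plus strand): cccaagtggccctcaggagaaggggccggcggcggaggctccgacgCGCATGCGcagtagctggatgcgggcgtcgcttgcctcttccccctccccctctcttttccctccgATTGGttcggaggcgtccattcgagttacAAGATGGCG
Rae1 (chr2:172999966-173000115, plus strand): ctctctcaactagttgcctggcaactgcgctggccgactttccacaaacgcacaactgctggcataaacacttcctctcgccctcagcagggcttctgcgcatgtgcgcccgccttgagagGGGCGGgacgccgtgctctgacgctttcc
Aaas (chr15:102350760-102350826, minus strand): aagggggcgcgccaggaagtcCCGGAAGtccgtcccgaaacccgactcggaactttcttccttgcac
Nup155 (chr15:8109113-8109262, plus strand): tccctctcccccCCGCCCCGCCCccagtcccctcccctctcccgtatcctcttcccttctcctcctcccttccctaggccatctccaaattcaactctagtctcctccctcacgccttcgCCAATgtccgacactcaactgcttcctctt
Nup37 (chr10:88146942-88146975, plus strand): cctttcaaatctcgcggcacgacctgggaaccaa
Nup188 (chr2:30286355-30286406, plus strand): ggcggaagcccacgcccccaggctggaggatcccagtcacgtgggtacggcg
In Nup50 an NRF1 match stands upstream of a CCAAT box (here on the other strand), and a YY1 match ends at its last base. Rae1 holds an SP/KLF match and Aaas an ETS match. The Nup155 stretch is poor in CpG, with 6 in 150 bases against 15 in that of Nup50, and holds SP/KLF matches that share a base, and a CCAAT box. The short stretches of Nup37 and Nup188 lie between start sites that run in opposite directions, and hold none of the letters searched. The windows that follow, of 30 bases each, hold the 5 YY1 matches of the 4 genes, in capitals, since this motif had the largest ratio to its share of windows with an H2A.Z peak.
Nup188 upstream (chr2:30286302-30286331, plus strand): accagggcagCGCCATCTTgacagccccat
Nup188 downstream (chr2:30286426-30286455, plus strand): cgcgcgcgcgAAGATGGCGgctgccgctgg
Nup205 (chr6:35177619-35177648, plus strand): gtcctcctccAAGATGGCGgcgctgttggc
Nup50 (chr15:84923409-84923438, plus strand): ttcgagttacAAGATGGCGgccccgggcgc
Nup88 (chr11:70969935-70969964, minus strand): ctgttagttcAAGATGGCGgctgccgtggg
Each gene has 1 match on its own strand at the start: counting the start base as 0, it covers bases 20 to 28 in Nup188, 13 to 21 in Nup205, -9 to -1 in Nup50 and 19 to 27 in Nup88. The other match at Nup188 covers bases -104 to -96 and reads on the opposite strand, the strand of Dolk, whose start lies 62 bp upstream. These matches are letters and not measured binding sites.

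Divergent promoters were also described. A gene on the opposite strand began within 1000 bp upstream of 8 of 26 nucleoporin genes (30.8%), against 11.3% of all 27025 genes. The share among genes with a promoter H2A.Z peak was not computed, so this contrast is not read as particular to nucleoporins. The protein-coding partners were Parpbp, 51 bp from Nup37, Dolk, 62 bp from Nup188, Rpain, 226 bp from Nup88, Pgap2, 306 bp from Nup98, and Atf5, 430 bp from Nup62, and the partners of Aaas, Nup210 and Nupl1 are long non-coding RNAs. In addition, 8 members overlap another protein-coding gene in RefSeq (Nup43, Ahctf1, Nup62, Pom121, Nup214, Nup88, Nup98 and Tpr). No source used here gives the strand setting of the counts, so for those 8 genes reads of the overlapping gene cannot be told apart.

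The transcripts of the pore varied little over the 12 RNA libraries. The highest library exceeded the lowest by 1.19-fold in Seh1l and by 2.07-fold in Nup37, with a median of 1.38-fold over the 30 genes. After Nup37, which had 27 to 73 counts a library, the widest ranges were those of Nup93 (1.78-fold, 30.8 to 54.7 CPM), Aaas (1.74-fold, with 79 to 130 counts) and Nup43 (1.7-fold, with 26 to 47 counts). Old conditioned library 61 was the lowest of the 12 for 8 members and old naive library 69 for 7. Library 61 also had the lowest nuclear-retained RNA of the 12.

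**Figure D3:**
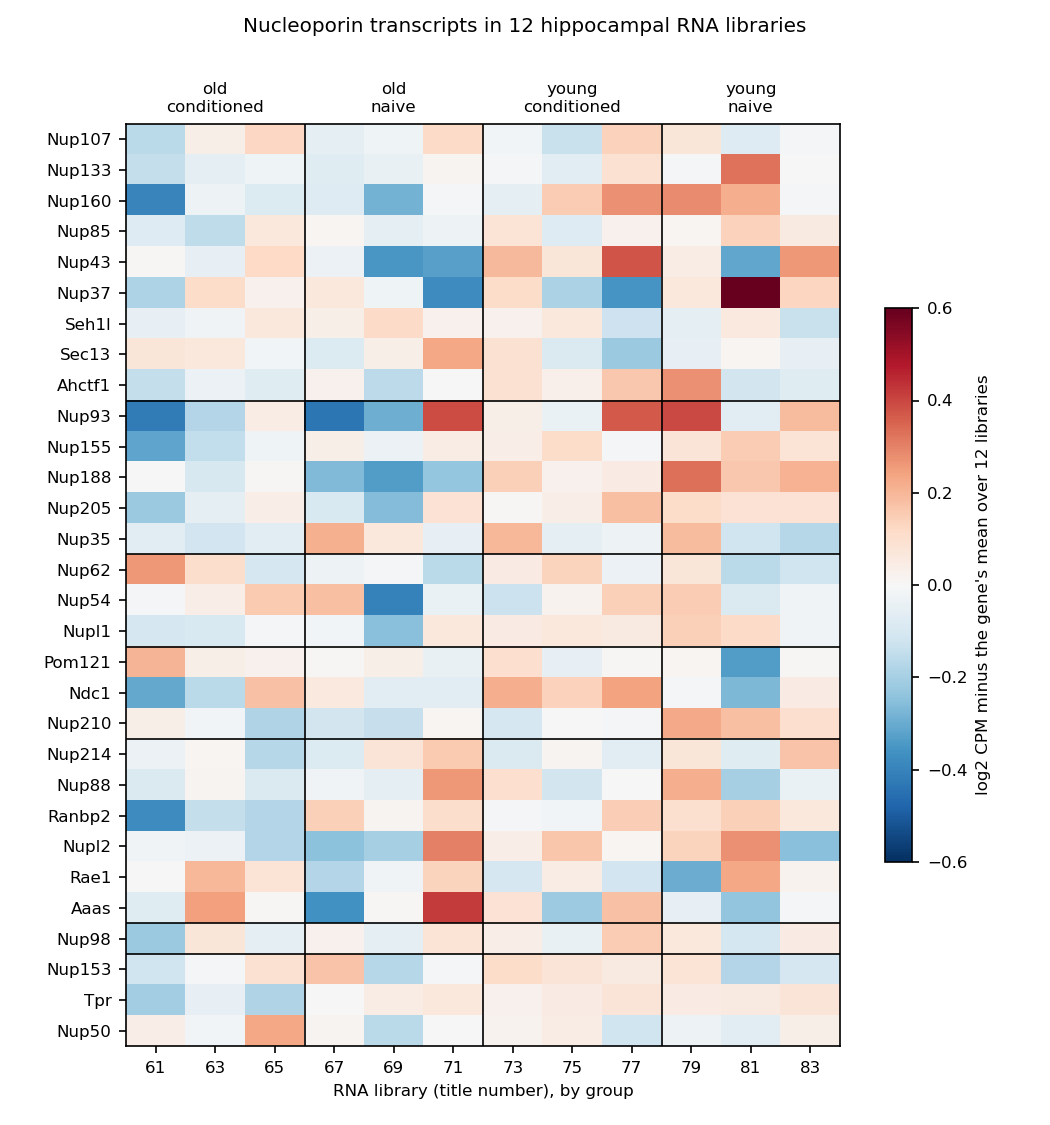
Log2 CPM of the 30 nucleoporin genes in 12 RNA libraries, each minus the gene's own mean (red higher, blue lower), with genes ordered by place in the pore (from the top, Y complex, inner ring, central channel, membrane ring, cytoplasmic face, the mobile Nup98, and basket) and libraries by group. Nup188 is blue in all 3 old naive and red in all 3 young naive libraries, and Ranbp2 and Tpr are blue in all 3 old conditioned libraries.

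With age in conditioned mice, no nucleoporin passed the adjusted threshold. The conditioned libraries share their fit with the naive ones in which Nup188 stood out, so they are not fully independent of the family's choice. In this comparison 0.0347% of all tested genes passed, 5 in all and each higher in old mice. Most nucleoporin values were slightly lower in old conditioned than in young conditioned hippocampi, with 20 of 30 log2 differences below 0 (against 51.5% of all tested genes) and a median of -0.09 (against -0.01). An unadjusted p under 0.05 was reached by 0 nucleoporins in the higher and 5 in the lower direction (against 6.23% and 7.14% of all genes). Libraries did not overlap for 8 members, each lower in old conditioned mice, where 11.8% of all genes were separated in that direction and 11.3% in the other. Choroid plexus RNA was lower in old conditioned mice in the same comparison, with 16 of 16 markers below 0 and a median log2 difference of -2.84, and the median over the 7 nuclear-retained RNAs was -0.36. With the choroid plexus score in the fit the members' median was -0.15, with the nuclear-retained score -0.05, and without old conditioned library 61 -0.05.

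The 5 genes with an unadjusted p under 0.05 came from several parts of the pore. Ranbp2 encodes the giant protein of the cytoplasmic filaments, which binds Ran and acts as a SUMO ligase. It had 235, 277 and 270 CPM in old conditioned libraries, against 304, 302 and 339 CPM in young conditioned libraries. Every old conditioned library lay under every young conditioned one, at a log2 difference of -0.27 ± 0.0678 (SE) with an adjusted p of 0.212 in edgeR. Tpr, the main filament of the nuclear basket, had 154, 171 and 156 CPM in old conditioned libraries, against 181, 184 and 187 CPM in young conditioned libraries. These libraries were also apart, at -0.20 ± 0.0544 (SE) and an adjusted p of 0.223 in edgeR. DESeq2 on the same counts called both genes, Ranbp2 at an adjusted p of 0.0235 and Tpr at 0.0478, in a comparison where it called 0.736% of all genes. Without old conditioned library 61, the difference was -0.20 for Ranbp2 and -0.16 for Tpr, and the adjusted p was 0.757 for both genes in edgeR.

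In the inner ring, 5 of 5 members lay below 0 in this comparison, with a median of -0.15. Nup155, a scaffold protein that bridges the inner ring to the membrane, had 30.4, 34.2 and 37.2 CPM in old conditioned libraries, against 39.0, 41.0 and 37.8 CPM in young conditioned libraries. The 3 old values lay under the 3 young ones, at -0.21 ± 0.0826 (SE) and an adjusted p of 0.306 in edgeR. Nup93, which holds the inner ring together, was at 31.0, 36.8 and 42.8 CPM in old conditioned libraries, against 42.5, 40.5 and 53.8 CPM in young conditioned libraries. These groups overlapped (log2 difference -0.30 ± 0.186 SE, adjusted p 0.493 in edgeR). Nup205 and Nup35 had log2 differences of -0.15 and -0.13, with adjusted p-values of 0.493 and 0.667 in edgeR. Nup35 had 12.1, 11.7 and 12.2 CPM in old conditioned libraries, against 14.6, 12.2 and 12.4 CPM in young conditioned libraries.

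Nup188, the large inner ring protein through which the family was noticed, did not pass the test between old and young conditioned mice. It had 23.2, 21.7 and 23.3 CPM in old conditioned libraries, against 25.6, 23.6 and 24.0 CPM in young conditioned libraries. The old values lay under the young ones, but by a log2 difference of -0.10 with a 95% interval of -0.29 to 0.08 (adjusted p 0.619 in edgeR). In naive mice, where it was noticed, it had 19.2, 18.3 and 19.7 CPM in old libraries, against 29.2, 25.9 and 26.8 CPM in young libraries, a log2 difference of -0.51.

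Of the Y complex, 5 of 9 members lay below 0 between old and young conditioned mice, with a median of -0.07. Nup160, a core subunit, had 15.8, 20.4 and 19.7 CPM in old conditioned libraries, against 20.1, 23.2 and 25.3 CPM in young conditioned libraries. The groups overlapped by 1 pair of libraries (-0.29 ± 0.125 SE, adjusted p 0.341 in edgeR). In naive mice its log2 difference was also -0.29, with 19.8, 17.1 and 20.8 CPM in old libraries, against 25.4, 24.4 and 20.8 CPM in young libraries. Ahctf1 (Elys), which seeds pore assembly on chromatin after mitosis, had 90.5, 97.5 and 94.9 CPM in old conditioned libraries, against 106, 102 and 112 CPM in young conditioned libraries. Its libraries did not overlap, at -0.18 ± 0.0891 (SE) and an adjusted p of 0.398 in edgeR. Nup43 had 3.10, 2.97 and 3.36 CPM in old conditioned libraries, against 3.54, 3.25 and 4.05 CPM in young conditioned libraries, where its low counts give a 95% interval of -0.63 to 0.24. The other Y complex members, Nup107, Nup133, Nup85, Nup37, Seh1l and Sec13, lay between -0.08 and 0.12.

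The remaining groups did not share a direction. Among the membrane proteins, Ndc1, needed to insert pores into the envelope, had 11.2, 12.4 and 15.8 CPM in old conditioned libraries, against 16.2, 15.3 and 16.5 CPM in young conditioned libraries. Its groups overlapped (-0.28 ± 0.128 SE, adjusted p 0.356 in edgeR). Pom121, a membrane anchor, had 116, 103 and 102 CPM in old conditioned libraries, against 108, 97.1 and 101 CPM in young conditioned libraries, with a log2 difference of 0.07. In the central channel Nupl1 (Nup58) had 49.9, 50.2 and 53.2 CPM in old conditioned libraries, against 55.3, 55.9 and 55.5 CPM in young conditioned libraries. Those did not overlap, at -0.12 (adjusted p 0.542 in edgeR), and its channel partners Nup62 and Nup54 lay at 0.04 and 0.05. On the cytoplasmic face Nupl2 had 7.52, 7.43 and 6.72 CPM in old conditioned libraries, against 7.84, 8.58 and 7.69 CPM in young conditioned libraries (-0.16, adjusted p 0.725 in edgeR). Rae1 had the highest log2 difference of the family, 0.15 (adjusted p 0.601 in edgeR), and Nup214, Nup88 and Aaas lay between -0.05 and 0.05. Nup98, which moves on and off the pore and also binds genes in the nuclear interior, had 62.3, 76.5 and 69.9 CPM in old conditioned libraries, against 74.8, 70.6 and 80.9 CPM in young conditioned libraries (-0.12). In the basket, Nup50 had 48.5, 46.6 and 55.3 CPM in old conditioned libraries, against 47.9, 48.6 and 43.4 CPM in young conditioned libraries (0.10), and Nup153 lay at -0.09.

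**Figure D4:**
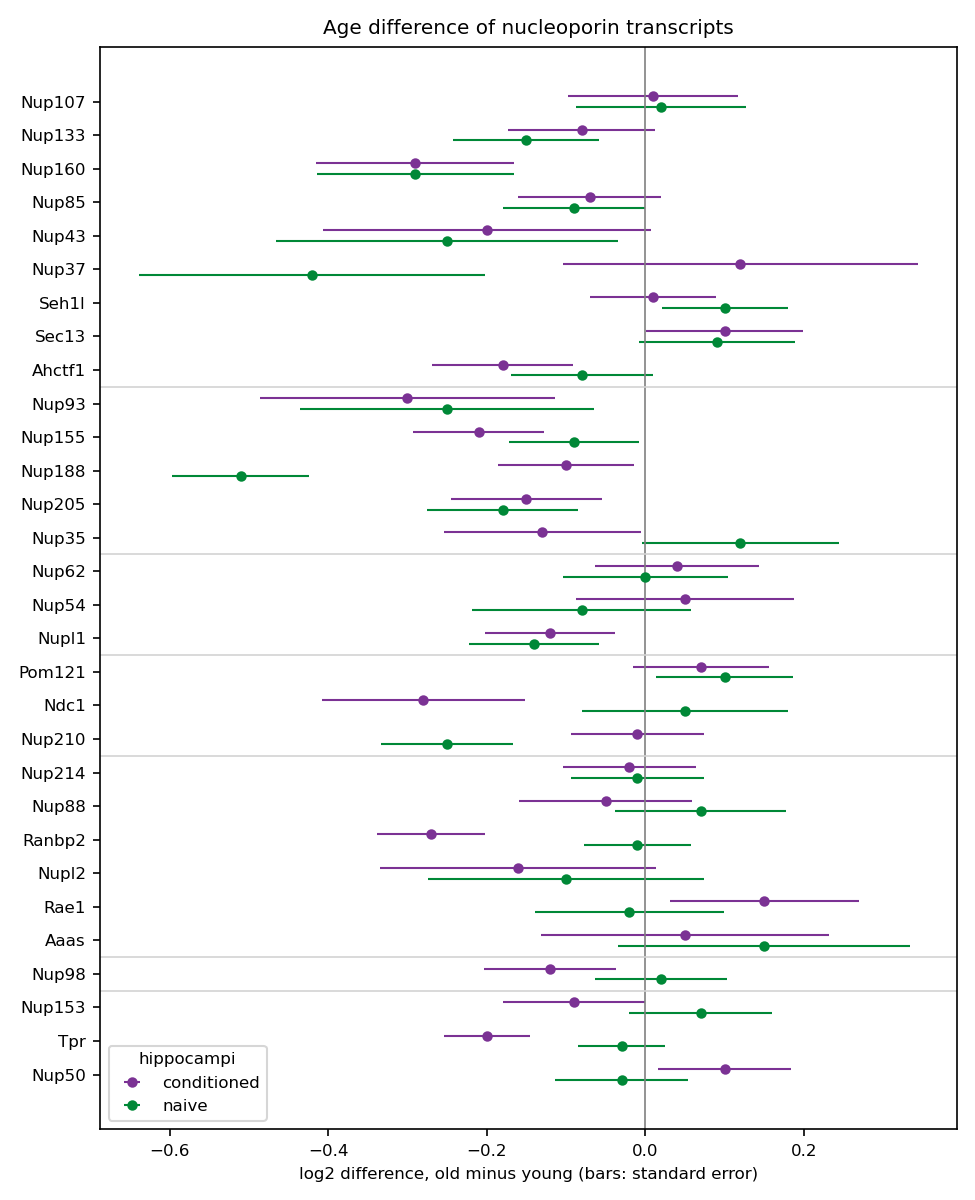
Log2 differences of the 30 nucleoporin transcripts between old and young hippocampi (points; bars, standard errors of the edgeR fit), in conditioned mice (purple) and in naive mice (green), with genes grouped by place in the pore. Nup188 lies at -0.51 in naive and -0.10 in conditioned mice, and Ranbp2 at -0.27 in conditioned and -0.01 in naive mice.

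In naive mice, 1 nucleoporin passed the adjusted threshold, Nup188, where 0.0555% of all tested genes passed, 5 higher and 3 (0.0208%) lower in old mice. Since the family was chosen for that value, nothing is read from the count. Of the 30 log2 differences (old minus young), 19 were below 0, against 51.6% of all genes, and the median was -0.03, against -0.01. Besides Nup188, those with the smallest unadjusted p were Nup210 and Nup160. Nup210, a membrane glycoprotein known from muscle and neural differentiation, had 30.3, 29.7 and 33.0 CPM in old naive libraries, against 38.4, 37.2 and 35.2 CPM in young naive libraries. The old libraries lay under the young ones, at a log2 difference of -0.25, whereas in conditioned mice the difference was -0.01. Libraries did not overlap for 5 members, each lower in old naive mice, where 6.35% of all genes were apart in that direction. Averaged over both conditions, Nup188 passed at -0.31, where 0.375% of all tested genes passed, with 0.229% lower. By unadjusted p, 0 members were higher and 8 lower in this average (against 7.33% and 9.27% of all genes), and the median of the family was -0.09, against 0 over all genes. In the same average 16 of 16 choroid plexus markers were lower by unadjusted p (median -1.87), as were 6 of 7 nuclear-retained RNAs (median -0.43), and 8 of 10 microglial markers were higher (median 0.33). With the nuclear-retained score in the fit the family's median was -0.02. Among the others Nup160 lay at -0.29, Nup205 at -0.16, Nup155 at -0.15, Ranbp2 at -0.14 and Tpr at -0.11 in this average.

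Conditioning moved no nucleoporin transcript past the adjusted threshold in edgeR at either age, nor in the average over ages. In old mice 0.0139% of all tested genes passed, all higher, and the family's median log2 difference (conditioned minus naive) was -0.03, against 0 over all genes, with 1 member higher and 3 members lower by unadjusted p (against 3.47% and 3.69% of all genes). Ranbp2 had 235, 277 and 270 CPM in old conditioned libraries, against 338, 309 and 328 CPM in old naive libraries. The libraries were apart, with a log2 difference of -0.32 ± 0.0677 (SE) and an adjusted p of 0.277 in edgeR. DESeq2 called Ranbp2 at an adjusted p of 0.0189, in a comparison where it called 0.0625% of all genes. Without old conditioned library 61 the difference was -0.25, with an adjusted p of 1 in edgeR. Tpr had 154, 171 and 156 CPM in old conditioned libraries, against 177, 183 and 185 CPM in old naive libraries (-0.18 ± 0.0545 SE, adjusted p 0.695 in edgeR). Nup155 lay at -0.18, and Nup188 was higher in each old conditioned than in each old naive library, at 0.25. The age and the conditioning differences of Ranbp2 and Tpr rest on the same 3 old conditioned libraries. For conditioning in old mice, 16 of 16 choroid plexus markers lay below 0 (median -2.44), and 14 were lower by unadjusted p. The 10 oligodendrocyte markers all lay below 0 (median -0.15), and the median over the 7 nuclear-retained RNAs was -0.01. With the choroid plexus score in the fit, the members' median was -0.07.

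In young mice 0.0278% of all tested genes passed, DESeq2 called 0 members (0.0555% of all genes), and the family's median was -0.01, with 1 member higher and 1 member lower by unadjusted p (against 3.45% and 3.18%). Ndc1 had 16.2, 15.3 and 16.5 CPM in young conditioned libraries, against 13.8, 11.5 and 14.4 CPM in young naive libraries. That left the groups apart (0.28 ± 0.128 SE, adjusted p 0.745 in edgeR). Nup210 had 30.5, 32.8 and 32.5 CPM in young conditioned libraries, against 38.4, 37.2 and 35.2 CPM in young naive libraries, also apart (-0.21 ± 0.0834 SE, adjusted p 0.73 in edgeR). Nup37 had 3.85, 3.08 and 2.73 CPM in young conditioned libraries, against 3.71, 5.57 and 3.89 CPM in young naive libraries, which overlapped (-0.45 ± 0.218 SE, adjusted p 0.746 in edgeR). Averaged over ages, where 0.0764% of all tested genes passed, 0 members were higher and 2 lower by unadjusted p (against 2.82% and 4.17%), and DESeq2 called 0 members (0.132% of all genes). The lowest p-values were those of Ranbp2 (-0.19, adjusted p 0.464 in edgeR), Tpr (-0.09, adjusted p 0.711) and Nup155 (-0.12, adjusted p 0.731).

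**Figure D5:**
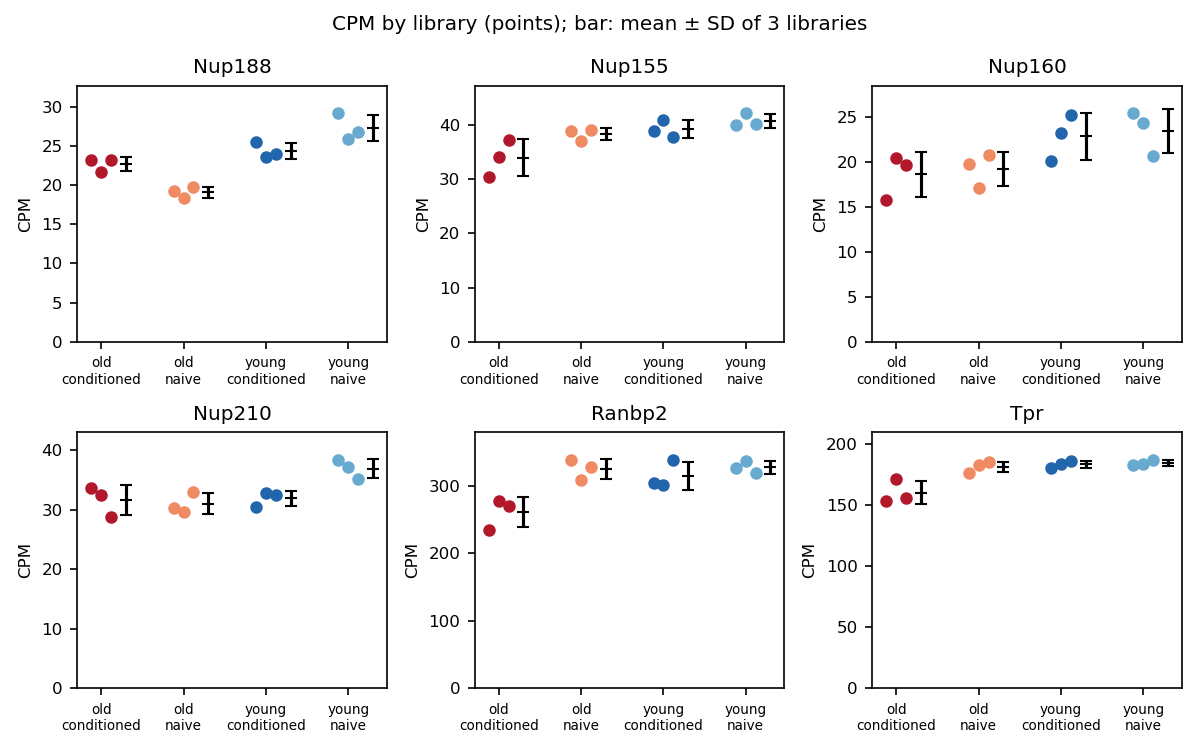
CPM of 6 nucleoporin genes in each RNA library (points) with the mean and SD of 3 libraries beside them (black), by group. The old conditioned libraries of Ranbp2 (235 to 277 CPM) and Tpr (154 to 171 CPM) lie under all other libraries of those genes, and the old naive libraries of Nup188 (18.3 to 19.7 CPM) under all others.

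The conditioning effect was not shown to differ between ages for any nucleoporin. In the test of the difference (effect in old minus effect in young), 0.0% of all tested genes passed, and by unadjusted p 1 nucleoporin was higher and 2 were lower (against 3.6% of all genes in each direction), while DESeq2 called 0 members (0.00694% of all genes). Ranbp2 lay at -0.26 ± 0.0956 (SE) with an adjusted p of 0.68 in edgeR, and Tpr at -0.17 ± 0.0769 (SE) with an adjusted p of 0.689. Nup188, at 0.41 ± 0.122 (SE), rests in part on the naive libraries in which it was noticed.

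The promoters whose H2A.Z passed after conditioning were set beside their transcripts, which come from other libraries. In old mice the RNA log2 differences for conditioning were 0.13 for Nup50, 0.11 for Rae1, 0.03 for Nup210, 0.09 for Pom121 and -0.06 for Seh1l, with standard errors between 0.0793 and 0.119. Each 95% interval includes 0, and the widest, that of Rae1, runs from -0.14 to 0.36. In young mice they were 0.12 for Aaas, 0.21 for Nup43, -0.05 for Nup155 and -0.45 for Nup37. Each of these intervals also includes 0, that of Nup37 running from -0.91 to 0.02. Ranbp2 and Tpr, with the lowest p-values in RNA, had H2A.Z folds for conditioning in old mice of -0.87 (FDR 0.163) and -1.16 (FDR 0.145) in the authors' deposited table.

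Genes that work with the pore were followed from lists of transport and envelope genes. In edgeR, no gene passed the adjusted threshold in any of the 7 comparisons among 16 import receptors, 16 export receptors and mRNA export factors, 6 genes of the Ran cycle and 14 genes of the lamina, inner membrane and LINC complex. Averaged over conditions, the medians of these lists between old and young mice were 0, -0.02, 0.07 and 0.01 on the log2 scale, and by unadjusted p 5 of the 52 genes were higher and 3 lower (against 7.33% and 9.27% of all genes). For conditioning averaged over ages, 2 of the 52 were higher and 2 lower by unadjusted p (against 2.82% and 4.17%). Ranbp1 and Rangap1, which help Ran hydrolyse GTP, averaged 36.0 ± 3.36 and 203 ± 13.1 CPM in old mice, against 32.2 ± 3.64 and 191 ± 2.66 CPM in young mice (SD, n = 6 each; adjusted p 0.27 and 0.279 in edgeR). Tnpo2, an import receptor, averaged 211 ± 11.1 CPM in old mice and 194 ± 5.9 CPM in young mice (SD, n = 6 each; adjusted p 0.189 in edgeR). The exportins Xpo4 and Xpo5 lay at -0.20 and -0.13, the import receptor Tnpo1 at -0.11, and the LINC genes Sun2 and Syne2 at 0.20 and -0.27. The smallest p for conditioning belonged to Syne1, which encodes the giant LINC protein nesprin-1. It averaged 799 ± 33.8 CPM in conditioned mice and 903 ± 50.1 CPM in naive mice, a log2 difference of -0.18 (SD, n = 6 each; adjusted p 0.35 in edgeR). DESeq2 called Syne1 in this average, where it called 0.132% of all genes, and no other of the 52 genes in any of the 7 comparisons. Syne2 lay at -0.27, Xpo1, the main export receptor, at -0.11, Ranbp1 at 0.14, Rangap1 at 0.09, Ddx19b, the mRNA export helicase, at 0.12, and the import receptors Kpna4 and Ipo9 at 0.12 and 0.09, with adjusted p-values between 0.711 and 0.775 in edgeR.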

How the data were processed

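RNA was measured in 12 hippocampal libraries and H2A.Z in 12 immunoprecipitated libraries, 3 for each of 4 groups taken from the labels, and 12 input libraries were not analysed here. For RNA, the authors deposited raw read counts per gene symbol. For H2A.Z there is a single deposited table, computed by the authors on mm10: for each consensus peak it holds mean levels of the groups and folds between them, both as log2 values, beside p-values and FDRs. Per the submitters' processing notes, the tools included TopHat, HTSeq 0.6.1p2, Bowtie2 2.2.1, MACS2 2.0.10, DiffBind 1.12.2 and edgeR 3.8.6. Annotation and strand setting are not stated in any source at hand. Groups written T in that table were read as conditioned, since N stands for naive. Its folds run naive minus conditioned and young minus old, and were turned round.

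Counts were fitted in R 4.3.3 with edgeR 4.0.16 (TMM factors, filterByExpr, 1 quasi-likelihood fit of the 4 groups), with Benjamini-Hochberg adjustment over 14405 genes at 0.05 for each of 7 comparisons. Intervals use the t quantile at the degrees of freedom of the fit. The fit was tested on simulated data. Nuclear-retained RNA and choroid plexus scores are the mean log2 CPM of their lists. DESeq2 1.42.0, other scaling factors, no low-count filter, a fit of 2 groups, both scores as covariates and each library left out were tried as alternatives. H2A.Z was described as deposited, since no values per library are held in it, and with other distances, thresholds and peaks added by coordinates. Promoter windows are RefSeq's (GRCm38.p6), and motif letters were chosen after the data were seen.

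Members and lists were chosen with earlier results of these data known. Members were given library by library where they passed the adjusted threshold, were among the 3 smallest p-values of a comparison, or were the highest or lowest in CPM of their structural group. From the lists of transport and envelope genes, the 2 smallest p-values of a list in the averages were named. Other members and the genes without overlap between libraries were chosen after their values were seen. No 2 libraries held identical values.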

Additional observations from a re-analysis of the deposited data

Results flagged for a closer look

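For Nup188, the difference between the conditioning effect at old age and at young age was 0.41 on the log2 scale (edgeR, standard error 0.122, adjusted p 0.68), and it drew attention because the 2 ages moved in opposite directions. Each of the 3 old conditioned libraries (21.7 to 23.3 CPM) lay above each of the 3 old naive ones (18.3 to 19.7 CPM), and each of the 3 young conditioned libraries (23.6 to 25.6 CPM) below each of the 3 young naive ones (25.9 to 29.2 CPM). The adjusted p misses the threshold, and the value shares its naive libraries with the age difference through which Nup188 was noticed.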

How the results depend on the processing

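No paired analysis was possible because the title numbers of the RNA libraries are all different, and the H2A.Z table holds no values per library. Nup188 was the 1 member called in naive mice between old and young. That count was 0 with the nuclear-retained score in the fit (log2 -0.48, adjusted p 0.0744), 0 in a fit of those groups alone (-0.51, adjusted p 0.347), and 0 to 1 when each library was left out, with the call kept only without young naive 81. Its adjusted p ran between 0.00627 (DESeq2) and 0.347 over the alternatives. Averaged over conditions, the count was 0 with the nuclear-retained score (-0.28, adjusted p 0.0986) and 0 to 1 over the left-out libraries, again 1 only without young naive 81, with adjusted p between 0.0157 (DESeq2) and 0.109 over the alternatives. With DESeq2 the count was 2 between old and young conditioned mice (Ranbp2 and Tpr) and 1 for conditioning in old mice (Ranbp2).

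The members' median between old and young conditioned mice was -0.15 with the choroid plexus score. Between old and young over both conditions it was -0.02 with the nuclear-retained score, and -0.05 without old conditioned 61 and young naive 81, a choice made after seeing the data. For conditioning it was -0.07 in old mice and -0.06 over both ages with the choroid plexus score. With each library left out, medians ran between -0.08 and -0.02 for age in naive mice, between -0.06 and 0.03 for conditioning in old mice, and between -0.06 and 0.04 for the difference of the conditioning effects. In the authors' deposited table, 1 nucleoporin promoter passed in old mice at an FDR of 0.01 (against 2.71% of all promoters) and 8 passed at 0.10 (against 29.5%). The cause of these shifts was not tested, and none of the values tried changed a called direction. Few counts limit Nup37 and Nup43, and 3 libraries a group limit every RNA comparison.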
